A study of Mus musculus with 15 samples.

Results

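Interferon-stimulated genes are genes whose transcription is switched on by interferons. The 38 examined here were listed by gene symbol, and all 38 were found among the 55487 genes of the count table. All 38 were among the 19006 genes with enough counts to be tested. RNA-seq counts came from 15 conjunctiva libraries, 5 per group, of female mice with the WT genotype whose strain was labelled BALC/c (BALB/c) and whose stated age was 9 to 12 weeks. Every mouse, controls included, had been sensitized through the skin of the ear with MC903, a vitamin D analog that inflames skin, and ovalbumin (OVA), which was injected into the same ear on 3 days and put on it on 1 day. The PBS group then had PBS put on the eye and no antibody was named for it (labelled N/A). The isotype group had OVA put on the eye and received an isotype control antibody, and the anti-IL-4Rα group had OVA put on the eye and received an antibody against IL-4Rα (labelled anti-IL-4Ra), the receptor chain through which IL-4 and IL-13 act. The eye challenge lasted 7 days and the last day of the model was day 24. Because every group had been sensitized, no library showed the conjunctiva of an untreated mouse. Library totals ran from 48622246 to 87745024 counts.

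Interferons bind receptors at the cell surface, whose Janus kinases phosphorylate STAT proteins. Type I and type III interferons act mainly through a complex that contains STAT2 and IRF9 and binds the interferon-stimulated response element (ISRE), while interferon gamma acts mainly through the gamma-activated site (GAS). The induced proteins sense foreign nucleic acids, block steps of viral growth, mark proteins with ISG15 or attract T cells, and in the conjunctiva both the mucosal epithelium and resident leukocytes can make them.

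Levels were counts per 1000000 counts (CPM) on TMM-scaled library sizes, and a gene was called where its adjusted p from edgeR, over all genes tested, was under 0.05. Markers of the labelled tissue were present: all 9 conjunctival epithelial markers listed were detected, and keratin 5 (Krt5) was the most abundant of them. One library stood apart. Isotype replicate 2 had the highest level of its group for 35 of the 38 members, against 27.4% of all genes tested. Over the members, its median fold over the median of the other isotype libraries was 1.68, against 0.98 over all genes tested. Its total of 87745024 counts was also the highest of the 15. For the members and role lists whose log2 values it moved most, values without it are also given.

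The comparison of the isotype with the PBS group asks what OVA on the eye did to these genes in skin-sensitized mice, although the antibody also differed and its part cannot be told apart from that of OVA. Of the 38 members, 22 rose (57.9%), against 9.53% of all genes tested called higher. The count called lower was 0, against 7.49% of all genes. The largest change was in the chemokine Cxcl10 (log2 fold change 2.32 ± 0.54 (SE), adjusted p = 0.0125, n = 5 per group). Next among called members came genes of the oligoadenylate synthetase family, at log2 fold changes of 1.57 for Oas1a and 1.51 for Oas2. The IFIT family, often used as a marker of interferon responses, had 0 of 4 members called, where 9.53% of all genes were called higher. Its median log2 fold change was 0.28, with 0.11 without isotype replicate 2 and 0.69 without PBS replicate 2. The difference between these families was not tested. All 38 log2 fold changes were positive, from 0.15 for Ifi35 and Irf1 to 2.32 for Cxcl10, with a median of 0.73 against -0.01 over all genes. In bulk tissue, more cells that carry these transcripts and more transcript per cell cannot be told apart.

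For 11 members the isotype libraries all exceeded the PBS libraries (28.9%), where the share of all genes tested was 6.85% and 9.53% were called higher. At an unadjusted p under 0.05, 29 members were higher and 0 lower in edgeR, against 17.1% and 15.5% of all genes. DESeq2 called 28 higher, limma voom 24 and limma on log2(CPM + 1) 20, and each called 0 lower. Of all genes tested, these called 22.5%, 21.2% and 16.7% in either direction. The 6 that DESeq2 called and edgeR did not were Ifih1, Isg15, Usp18, Rsad2, Xaf1 and Cxcl9. Leaving out PBS replicate 1, 3 or 4 gave 13, 14 and 12 members called higher. In these fits 14.9%, 13.2% and 12.2% of all genes were called in either direction. Without PBS replicate 2 the count was 23 (with 10.7% of all genes called) and the median 0.90. Without isotype replicate 2 the count was 12 (with 10.8% of all genes called), the median was 0.50 and 37 of the 38 log2 fold changes were positive, the exception being Ifit3. The 10 members called with that library and not without it were Dhx58, Irf7, Oas3, Oasl2, Mx1, Mx2, Gbp2, Rtp4, Ifi44 and Dtx3l. Called in each of the 15 fits that left out 1 library, and by each of 9 alternative methods, were Zbp1, Irf9, Stat2, Oas1a, Oas2, Gbp3, Bst2, Trim30a, Parp9, Parp14 and Cxcl10. Of these, Irf9 was not called when replicate 2 of both the isotype and the PBS group was left out (log2 fold change 0.37, adjusted p = 0.051).

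**Figure D1:**
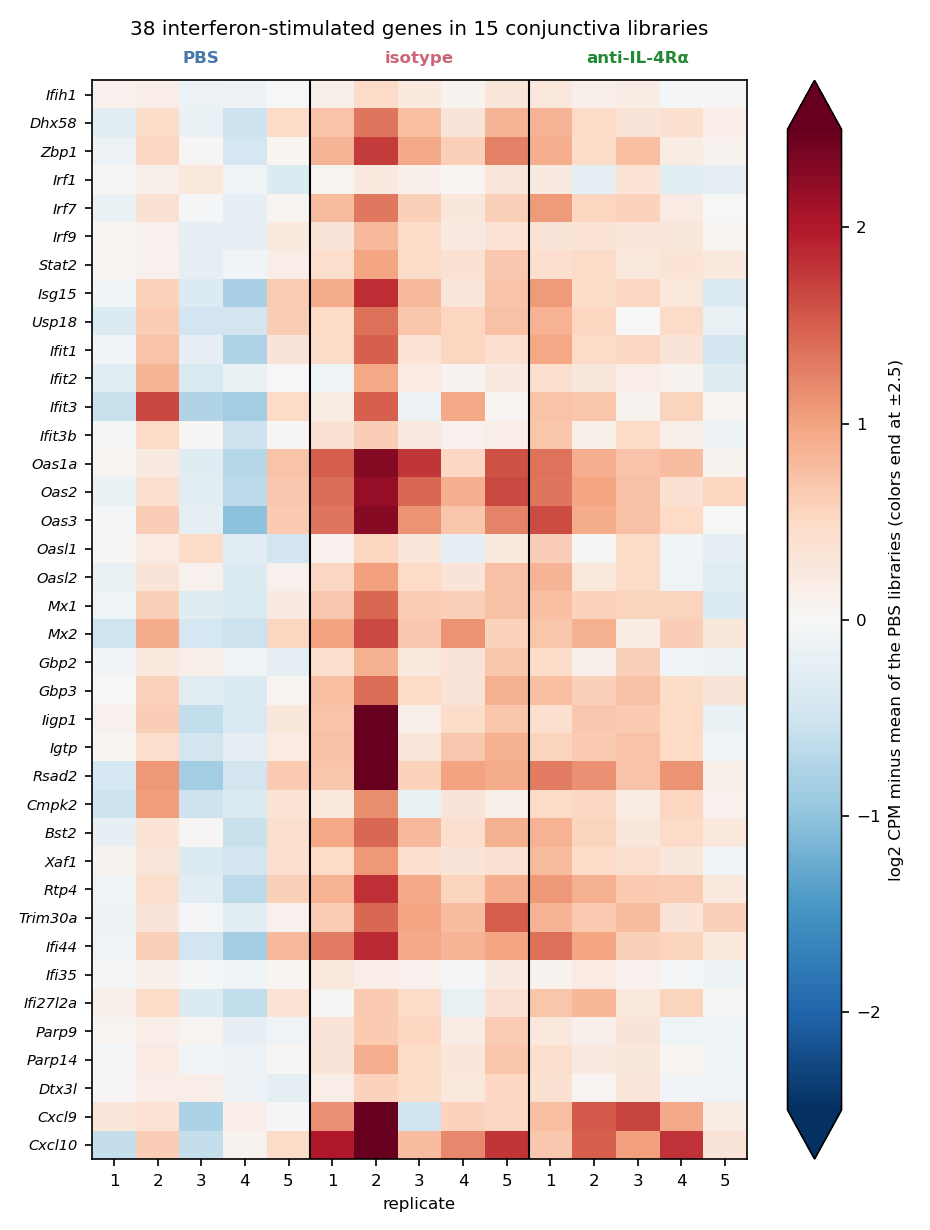
Log2 CPM of each of the 38 members (vertical axis, by role) minus its mean over the PBS libraries, in each of the 15 libraries (horizontal axis). Isotype replicate 2 stands out within its group, and PBS replicate 2 is above the PBS mean for all 38 members.

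Promoter sequences from RefSeq (build GRCm38.p6, 250 bases before to 50 after the start of the gene) were held for 27 of the 38 members. They are shown because 22 members rose in one comparison and the known response elements lie in this window for many of them. The ISRE core, GAAANNGAAA on either strand, was in the promoter of 15 of the 27 members (55.6%), against 3.99% of 27025 genes and 3.44% of 32851 promoters. Of the 14 members in the table that rose, 9 held it, and of the 13 that were not called, 6 held it. The GAS core, TTCNNNGAA, which reads the same on both strands, was in 6 of 27 (22.2%), against 9.55% of genes and 8.3% of promoters. Bst2, Igtp and Oas1a held both. A match describes letters and not a bound site. The stretches of 80 bases are written 5′ to 3′ along the gene's strand, with capitals marking the GAS core in Irf1 and the ISRE core in the others. They lie at chr11:53769888-53769967 on the plus strand for Irf1, chr10:128270248-128270327 on the plus strand for Stat2, chr4:156200846-156200925 on the minus strand for Isg15, chr19:34640759-34640838 on the plus strand for Ifit1, chr19:34583355-34583434 on the plus strand for Ifit3 and chr19:34607751-34607830 on the plus strand for Ifit3b. The others lie at chr3:142559964-142560043 on the plus strand for Gbp3, chr7:104465194-104465273 on the minus strand for Trim30a and chr5:92349058-92349137 on the minus strand for Cxcl10.
Irf1: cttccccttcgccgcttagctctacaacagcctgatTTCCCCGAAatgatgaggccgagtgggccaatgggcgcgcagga
Stat2: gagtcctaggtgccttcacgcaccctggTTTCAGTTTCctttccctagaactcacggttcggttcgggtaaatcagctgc
Isg15: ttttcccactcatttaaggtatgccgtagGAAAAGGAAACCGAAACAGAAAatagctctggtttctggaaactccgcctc
Ifit1: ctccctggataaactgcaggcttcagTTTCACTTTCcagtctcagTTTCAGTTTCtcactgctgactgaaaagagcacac
Ifit3: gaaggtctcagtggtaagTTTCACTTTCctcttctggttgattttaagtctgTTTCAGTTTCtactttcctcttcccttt
Ifit3b: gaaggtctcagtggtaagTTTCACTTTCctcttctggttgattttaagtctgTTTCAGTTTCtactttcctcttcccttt
Gbp3: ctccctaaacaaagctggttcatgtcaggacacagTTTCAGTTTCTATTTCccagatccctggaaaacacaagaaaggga
Trim30a: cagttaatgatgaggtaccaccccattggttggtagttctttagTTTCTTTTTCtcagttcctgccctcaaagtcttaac
Cxcl10: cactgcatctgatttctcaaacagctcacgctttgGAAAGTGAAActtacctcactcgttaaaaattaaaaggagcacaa
Isg15 held 3 overlapping matches within its stretch. The stretches of the neighbouring genes Ifit3 and Ifit3b had 0 differences over 80 bases. The members with no entry in the table were Zbp1, Dhx58, Usp18, Oas2, Mx1, Mx2, Iigp1, Rtp4, Ifi27l2a, Parp9 and Parp14.

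Among the nucleic acid sensors, 2 of 3 rose, Zbp1 and Dhx58. Zbp1, a sensor of Z-form nucleic acids that can start necroptosis (ENSMUSG00000027514, chr2:173206612-173218923, minus strand in GRCm38), measured 6.05, 9.69, 6.88, 4.95 and 6.91 CPM in PBS replicates 1 to 5, 12.1, 22.7, 13, 10.1 and 16.1 in isotype replicates 1 to 5, and 12.7, 9.3, 11.4, 7.71 and 7.16 in anti-IL-4Rα replicates 1 to 5. The isotype libraries all exceeded the PBS libraries, isotype replicate 2 was highest, and anti-IL-4Rα replicates 2, 4 and 5 lay inside the PBS range. Zbp1 rose in the isotype group (log2 fold change 1.10 ± 0.23 (SE), adjusted p = 0.00829; exact permutation p = 0.00794, the smallest that 5 against 5 libraries can give). Ifih1, which encodes the long double-stranded RNA sensor MDA5 (ENSMUSG00000026896, chr2:62595798-62646255, minus strand), measured 25.4, 26.8, 21.4, 21.7 and 24 CPM in PBS replicates 1 to 5, 26.1, 33.2, 28.1, 25.2 and 29.6 in isotype replicates 1 to 5, and 28.4, 26, 27, 23.5 and 24.4 in anti-IL-4Rα replicates 1 to 5. Isotype replicates 2, 3 and 5 lay above all PBS libraries, while replicates 1 and 4 lay below PBS replicate 2. Its difference did not pass (log2 fold change 0.25 ± 0.08 (SE), adjusted p = 0.0541), although it did without PBS replicate 2, isotype replicate 1 or isotype replicate 4 (adjusted p = 0.0444, 0.0422 and 0.0345). Dhx58, which encodes the RNA helicase LGP2, had a log2 fold change of 0.78 (adjusted p = 0.0281), a call lost without PBS replicate 1, 3 or 4 or isotype replicate 2, 3 or 5.

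Of the 4 transcription factors, 3 rose, Stat2, Irf9 and Irf7. Stat2, part of the complex that binds the ISRE (ENSMUSG00000040033, chr10:128270559-128292849, plus strand), measured 35.7, 37.2, 29.1, 32.9 and 38.6 CPM in PBS replicates 1 to 5, 46.8, 68.2, 47.1, 45 and 55.3 in isotype replicates 1 to 5, and 46.1, 48, 41.6, 43.7 and 41.1 in anti-IL-4Rα replicates 1 to 5. Both OVA-challenged groups lay wholly above the PBS group, and they overlapped each other. Stat2 rose in the isotype group (log2 fold change 0.60 ± 0.11 (SE), adjusted p = 0.00415). Irf1, a factor that interferon gamma induces strongly (ENSMUSG00000018899, chr11:53770014-53778374, plus strand), measured 81.4, 86.7, 96.2, 76.5 and 62.7 CPM in PBS replicates 1 to 5, 84.1, 95.3, 87.6, 82.8 and 98.1 in isotype replicates 1 to 5, and 93.6, 68.2, 101, 65.6 and 67.5 in anti-IL-4Rα replicates 1 to 5. The 3 groups overlapped throughout, with PBS replicate 3 above 4 of the 5 isotype libraries. Irf1 was not called (log2 fold change 0.15 ± 0.13 (SE), adjusted p = 0.465), and per kilobase it was the second most abundant member, at 20.9 CPM. Irf9, the DNA-binding part of the same complex, had a log2 fold change of 0.44 (adjusted p = 0.0174). For Irf7, which drives interferon alpha transcription, it was 0.74 (adjusted p = 0.0287), and the call was lost without isotype replicate 2 or PBS replicate 1, 3, 4 or 5. Irf9 (37880 counts over the 15 libraries) overlaps Rnf31 (27517) on the same strand, and Irf7 (37581) overlaps Phrf1 (61128) on the opposite strand. Of the 38 members, 14 overlap another gene, 10 on the opposite strand and 4 on the same strand, and how reads of an overlap were assigned is not known.

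Neither of the 2 genes of the ISG15 system passed in edgeR or in limma on log2(CPM + 1), although both had an unadjusted p under 0.05, DESeq2 called both and limma voom called Usp18. Isg15, a ubiquitin-like protein that is attached to other proteins and also secreted (ENSMUSG00000035692, chr4:156199424-156200818, minus strand), measured 8.22, 12.8, 6.69, 4.84 and 13.4 CPM in PBS replicates 1 to 5, 16.2, 30.9, 15.1, 10.6 and 14 in isotype replicates 1 to 5, and 18, 11.8, 12.2, 10.2 and 6.59 in anti-IL-4Rα replicates 1 to 5. Isotype replicate 2 was highest, and isotype replicate 4 lay below PBS replicates 2 and 5. The difference had an adjusted p of 0.0739 (log2 fold change 0.92 ± 0.34, SE), passed without isotype replicate 4 (1.06, adjusted p = 0.0496) and was 0.61 without isotype replicate 2. Usp18, which removes ISG15 and dampens the type I receptor, had a log2 fold change of 0.72 (adjusted p = 0.088).

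The 4 IFIT genes belong to a family that includes proteins binding viral RNA that lacks host cap methylation. None was called in edgeR, DESeq2, limma voom or limma on log2(CPM + 1), 0 had an unadjusted p under 0.05 in edgeR, and their median log2 fold change was 0.28. That median was 0.11 without isotype replicate 2, 0.69 without PBS replicate 2 and 0.45 without both. Ifit1 (ENSMUSG00000034459, chr19:34640871-34650009, plus strand) measured 7.57, 12.9, 6.88, 4.59 and 9.88 CPM in PBS replicates 1 to 5, 11, 22.4, 10, 11.4 and 10.4 in isotype replicates 1 to 5, and 15.4, 11, 11.3, 9.88 and 5.74 in anti-IL-4Rα replicates 1 to 5. PBS replicate 2 lay above every isotype library except replicate 2. Its log2 fold change was 0.64 (adjusted p = 0.161). Ifit3b (ENSMUSG00000062488, chr19:34607970-34613401, plus strand), the most abundant of the family per kilobase at 7.38 CPM, measured 12.3, 17.9, 12.9, 8.87 and 12.9 CPM in PBS replicates 1 to 5, 16.5, 19.3, 14.8, 13.6 and 14.2 in isotype replicates 1 to 5, and 20.7, 14, 17.8, 14 and 11.6 in anti-IL-4Rα replicates 1 to 5. The groups overlapped, with anti-IL-4Rα replicate 1 the highest of the 15 libraries. Ifit3b had a log2 fold change of 0.27 (adjusted p = 0.311), Ifit3 one of 0.30 and Ifit2 one of 0.25. Without isotype replicate 2 the values were 0.36 for Ifit1, 0.03 for Ifit2, -0.02 for Ifit3 and 0.19 for Ifit3b, against 0.85, 0.53, 0.97 and 0.42 without PBS replicate 2, and 0.57, 0.31, 0.65 and 0.33 without both. Ifit3 and Ifit3b are close paralogs, and how reads were shared between them is not known.

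The oligoadenylate synthetases, which make the messenger that activates RNase L, had 4 of 5 genes called higher and a median log2 fold change of 1.32. Oas2 (ENSMUSG00000032690, chr5:120730333-120749853, minus strand) measured 4.81, 7.16, 4.51, 3.44 and 8.59 CPM in PBS replicates 1 to 5, 14.3, 24.9, 14.6, 10.2 and 17.1 in isotype replicates 1 to 5, and 13.6, 10.7, 9.03, 7.09 and 7.89 in anti-IL-4Rα replicates 1 to 5. The isotype group lay wholly above the PBS group, as did anti-IL-4Rα replicates 1, 2 and 3. Oas2 rose in the isotype group (log2 fold change 1.51 ± 0.28 (SE), adjusted p = 0.00427). Oasl1, which lacks synthetase activity and represses translation of Irf7 mRNA (ENSMUSG00000041827, chr5:114923240-114937915, plus strand), measured 19.1, 21.4, 26.1, 15.5 and 13.6 CPM in PBS replicates 1 to 5, 20.2, 27.1, 23.1, 15.9 and 22.5 in isotype replicates 1 to 5, and 28.7, 18.9, 26, 17.7 and 15.9 in anti-IL-4Rα replicates 1 to 5. Its groups overlapped throughout. Oasl1 was the member of the family that did not pass (log2 fold change 0.19 ± 0.20 (SE), adjusted p = 0.558; 0.09 without isotype replicate 2), and it was also the most abundant of them per kilobase, at 7.97 CPM. Oas1a, Oas3 and Oasl2 had log2 fold changes of 1.57, 1.32 and 0.62 (adjusted p = 0.00737, 0.0268 and 0.0466). The calls of Oas3 and Oasl2 were lost without isotype replicate 2, and without PBS replicate 1, 3 or 4. That of Oasl2 was also lost when PBS replicate 2 or 5, isotype replicate 3 or 5, or the second or the third anti-IL-4Rα library was left out.

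Of 6 interferon-inducible GTPases, 5 rose. Gbp2, a guanylate-binding protein that acts on membranes around intracellular microbes (ENSMUSG00000028270, chr3:142620602-142638008, plus strand), measured 32.1, 39.5, 37.2, 31.6 and 28.1 CPM in PBS replicates 1 to 5, 45.5, 62, 39.6, 41.8 and 54.4 in isotype replicates 1 to 5, and 45.8, 36.4, 50.6, 32 and 30.7 in anti-IL-4Rα replicates 1 to 5. The groups were separated narrowly, by 39.6 CPM in isotype replicate 3 over 39.5 in PBS replicate 2. Gbp2 rose (log2 fold change 0.53 ± 0.16 (SE), adjusted p = 0.0341), a call lost without PBS replicate 1, 4 or 5 (adjusted p = 0.0644, 0.0714 and 0.0807) or without isotype replicate 2 or 5 (0.0884 and 0.0749). Gbp3, of the same family (ENSMUSG00000028268, chr3:142560026-142573209, plus strand), measured 8.25, 12.5, 6.92, 6.42 and 8.73 CPM in PBS replicates 1 to 5, 14.1, 21.9, 11.7, 10.4 and 15.4 in isotype replicates 1 to 5, and 14, 12.6, 14, 11.4 and 10.5 in anti-IL-4Rα replicates 1 to 5. PBS replicate 2 lay above isotype replicates 3 and 4. Gbp3 rose (log2 fold change 0.78 ± 0.20 (SE), adjusted p = 0.0205). Mx1 and Mx2, dynamin-like GTPases that restrict viruses, had log2 fold changes of 0.81 and 0.94 (adjusted p = 0.0321 and 0.0466), and neither was called without isotype replicate 2 or without PBS replicate 1, 3, 4 or 5. Mx2 was also not called when isotype replicate 1, 3 or 4 was left out, or any anti-IL-4Rα library other than replicate 3.

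Iigp1 and Igtp, immunity-related GTPases that interferon gamma induces strongly, were chosen for description after their values were seen. Iigp1 measured 6.94, 9.98, 4.23, 4.97 and 7.93 CPM in PBS replicates 1 to 5, 10.6, 65.6, 7.22, 8.91 and 10.6 in isotype replicates 1 to 5, and 8.56, 10.4, 10.3, 9.16 and 5.79 in anti-IL-4Rα replicates 1 to 5. Isotype replicate 2 lay far above the 14 other libraries, which all lay at 10.6 CPM or less. The difference was not called (log2 fold change 1.60 ± 0.55 (SE), adjusted p = 0.0577). It passed without isotype replicate 1, 3 or 4 (adjusted p = 0.0419, 0.0478 and 0.0411), and without isotype replicate 2 the log2 fold change was 0.46. Igtp measured 7.62, 9.99, 5.43, 6.29 and 8.59 CPM in PBS replicates 1 to 5, 12.4, 47.6, 9.12, 11.8 and 13.6 in isotype replicates 1 to 5, and 10.9, 11.7, 12.2, 10.5 and 7.06 in anti-IL-4Rα replicates 1 to 5. Isotype replicate 2 was again highest, and isotype replicate 3 lay below PBS replicate 2. Igtp was called (log2 fold change 1.32 ± 0.39 (SE), adjusted p = 0.0328), was not called without PBS replicate 1, 3, 4 or 5 (adjusted p = 0.057, 0.0718, 0.0707 and 0.0575), and had a log2 fold change of 0.63 without isotype replicate 2. Igtp overlaps Irgm2 on the same strand, so reads of the overlap cannot be assigned from the counts.

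**Figure D2:**
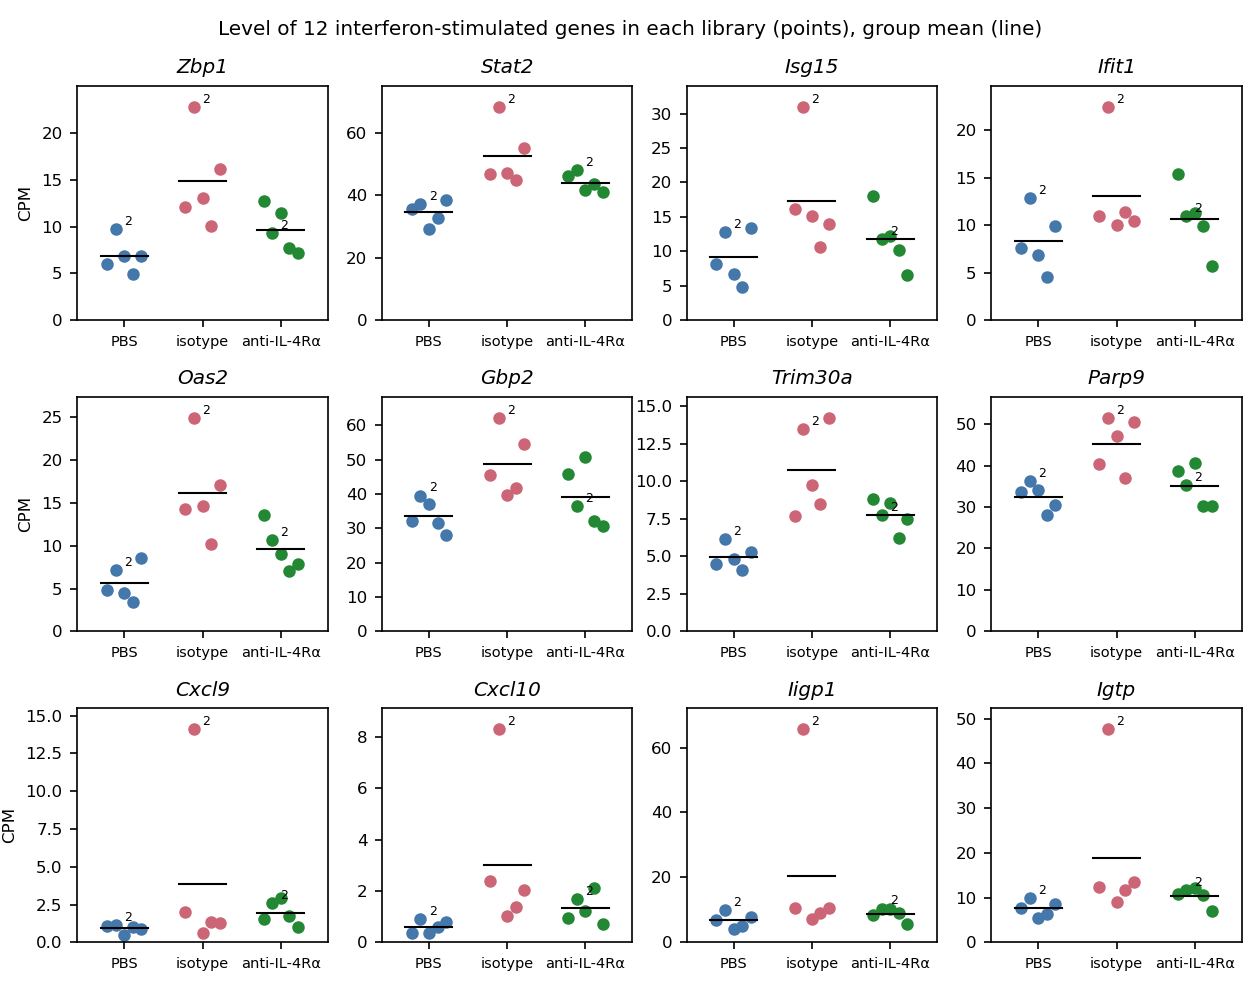
CPM (vertical axis, starting at 0) in each library of the 3 groups for 12 members, where each point is 1 library, replicates 1 to 5 run from left to right, the line is the group mean, and the number 2 marks replicate 2. Trim30a and Stat2 are separated from PBS in both OVA-challenged groups, while isotype replicate 2 carries the high values of Cxcl9 and Iigp1.

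Among 9 other effectors, 4 rose: Trim30a, Bst2, Rtp4 and Ifi44. Trim30a, a tripartite motif protein that restrains Toll-like receptor signalling (ENSMUSG00000030921, chr7:104409025-104465193, minus strand), measured 4.52, 6.16, 4.81, 4.07 and 5.32 CPM in PBS replicates 1 to 5, 7.7, 13.5, 9.78, 8.49 and 14.2 in isotype replicates 1 to 5, and 8.82, 7.73, 8.57, 6.2 and 7.51 in anti-IL-4Rα replicates 1 to 5. Both OVA-challenged groups lay wholly above the PBS group. Trim30a had the smallest p of the members in this comparison (log2 fold change 1.11 ± 0.17 (SE), adjusted p = 0.00192). Ifi27l2a (ENSMUSG00000079017, chr12:103442167-103443680, minus strand), the most abundant member per kilobase at 100 CPM, measured 41.4, 52.6, 29.7, 24.6 and 47.6 CPM in PBS replicates 1 to 5, 38.2, 59.6, 52.4, 33 and 49.2 in isotype replicates 1 to 5, and 60.6, 67, 45.2, 55 and 38.2 in anti-IL-4Rα replicates 1 to 5. The groups overlapped, and anti-IL-4Rα replicate 2 was the highest library. It was not called (log2 fold change 0.25 ± 0.22 (SE), adjusted p = 0.47; 0.14 without isotype replicate 2 and 0.38 without PBS replicate 2). Bst2, which encodes the virus-tethering protein tetherin, had a log2 fold change of 0.90 (adjusted p = 0.0107). The values were 1.02 for Rtp4, which was not called without isotype replicate 2, and 1.11 for Ifi44, which was not called without that library or PBS replicate 1, 3 or 4. Rsad2, which encodes the antiviral enzyme viperin and was the least abundant member per kilobase at 0.696 CPM, had a log2 fold change of 1.26 (adjusted p = 0.0773), passed without PBS replicate 2 (1.62), and was at 0.62 without isotype replicate 2. The other members of the list, Cmpk2, Xaf1 and Ifi35, had log2 fold changes of 0.28, 0.52 and 0.15, and edgeR called none of them, while DESeq2 called Xaf1 (adjusted p = 0.0441). The value of Cmpk2 was 0.01 without isotype replicate 2, 0.64 without PBS replicate 2 and 0.36 without both.

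All 3 genes of the PARP group rose. Parp9, whose protein pairs with the ubiquitin ligase DTX3L (ENSMUSG00000022906, chr16:35938470-35972605, plus strand), measured 33.7, 36.3, 34, 28.1 and 30.6 CPM in PBS replicates 1 to 5, 40.4, 51.4, 47.1, 37.1 and 50.4 in isotype replicates 1 to 5, and 38.7, 35.2, 40.6, 30.3 and 30.3 in anti-IL-4Rα replicates 1 to 5. The isotype and PBS groups did not overlap, while anti-IL-4Rα replicates 1 and 3 reached into the isotype range. Parp9 rose in the isotype group (log2 fold change 0.48 ± 0.11 (SE), adjusted p = 0.0116). Parp14, an ADP-ribosyltransferase that also acts as a cofactor of STAT6, the factor downstream of IL-4Rα (ENSMUSG00000034422, chr16:35832874-35871544, minus strand), measured 24.1, 28.8, 23.9, 22.4 and 25.4 CPM in PBS replicates 1 to 5, 31.1, 46.3, 34.2, 30.9 and 40.2 in isotype replicates 1 to 5, and 33.8, 29, 30.1, 25.7 and 23.2 in anti-IL-4Rα replicates 1 to 5. The isotype group lay wholly above the PBS group, and of the anti-IL-4Rα libraries replicate 1 alone reached into the isotype range. Parp14 rose (log2 fold change 0.55 ± 0.12 (SE), adjusted p = 0.0101). For Dtx3l, which lies beside Parp9 on the opposite strand and overlaps it, the log2 fold change was 0.40 (adjusted p = 0.0296), a call lost without PBS replicate 4 or 5 or isotype replicate 2, 3 or 5.

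Both chemokines of the list bind CXCR3 on T and NK cells. Cxcl10 (ENSMUSG00000034855, chr5:92346638-92348889, minus strand) measured 0.371, 0.899, 0.372, 0.612 and 0.808 CPM in PBS replicates 1 to 5, 2.41, 8.3, 1.01, 1.36 and 2.06 in isotype replicates 1 to 5, and 0.937, 1.69, 1.21, 2.1 and 0.732 in anti-IL-4Rα replicates 1 to 5. Isotype values all exceeded PBS values, with isotype replicate 2 far above the others. Cxcl10 rose (log2 fold change 2.32 ± 0.54 (SE), adjusted p = 0.0125), by a log2 fold change of 1.48 without isotype replicate 2 (adjusted p = 0.0232). Its total over the 15 libraries was 1715 counts, and Art3, which overlaps it on the opposite strand, had 25245. Cxcl9 (ENSMUSG00000029417, chr5:92321347-92328079, minus strand) measured 1.1, 1.15, 0.495, 0.994 and 0.879 CPM in PBS replicates 1 to 5, 2.0, 14.1, 0.623, 1.35 and 1.28 in isotype replicates 1 to 5, and 1.53, 2.62, 2.93, 1.75 and 1.02 in anti-IL-4Rα replicates 1 to 5. Isotype replicate 2 was highest, isotype replicate 3 lay below 4 of the 5 PBS libraries, and anti-IL-4Rα replicates 1 to 4 lay above all PBS libraries. The difference between isotype and PBS was not called (log2 fold change 2.08 ± 0.71 (SE), adjusted p = 0.0587). It passed without isotype replicate 1, 3 or 4 (adjusted p = 0.0483, 0.0406 and 0.0444), and without isotype replicate 2 its log2 fold change was 0.50.

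Members varied more between libraries of the same group than the median gene did. The median SD of log2 CPM over the members was 0.40 in the PBS group, 0.39 in the isotype group and 0.32 in the anti-IL-4Rα group, against 0.14, 0.18 and 0.17 over all genes tested. Without isotype replicate 2 it was 0.21 in the isotype group, against 0.14 over all genes. Among members, the SD was lowest for Ifi35 in the PBS group (0.08), Irf1 in the isotype group (0.11) and Stat2 in the anti-IL-4Rα group (0.10). It was highest for Ifit3 in the PBS group (1.08) and for Cxcl9 in the isotype and anti-IL-4Rα groups (1.67 and 0.60). Without isotype replicate 2, the highest SD in the isotype group was 0.68, again for Cxcl9, and the lowest was 0.06, for Mx1. Without PBS replicate 2, the highest in the PBS group was 0.71, for Ifi44. Ifit3 measured 3.04, 14.3, 2.64, 2.45 and 6.27 CPM in PBS replicates 1 to 5, 5.11, 12.6, 4.07, 8.66 and 4.68 in isotype replicates 1 to 5, and 7.39, 7.25, 4.71, 6.6 and 4.61 in anti-IL-4Rα replicates 1 to 5. PBS replicate 2 was the highest of all 15 libraries for this gene.

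The mean over the 38 members of log2 CPM minus the PBS mean was -0.11, 0.48, -0.23, -0.39 and 0.25 in PBS replicates 1 to 5. It was 0.64, 1.49, 0.53, 0.44 and 0.71 in isotype replicates 1 to 5 and 0.74, 0.55, 0.49, 0.37 and 0.02 in anti-IL-4Rα replicates 1 to 5. PBS replicate 2 lay above isotype replicate 4 on this mean, and anti-IL-4Rα replicates 4 and 5 lay within the PBS range. Within their groups, PBS replicate 2 was highest for 24 members (against 18.9% of all genes tested), anti-IL-4Rα replicate 1 highest for 25 (16.5%) and anti-IL-4Rα replicate 5 lowest for 32 (17.2%). PBS replicate 4 and isotype replicate 4 were each lowest for 24 members (against 15.8% and 18.2% of all genes tested). In isotype replicate 2, 9 members were at least 2-fold over the median of the other isotype libraries, against 3.17% of all genes tested. The folds were 10.8 for Cxcl9, 6.74 for Iigp1, 4.85 for Cxcl10, 3.93 for Igtp, 3.72 for Rsad2, 2.57 for Ifit3, 2.12 for Isg15 and Oas3, and 2.10 for Ifit1. Ifng, the interferon gamma gene, had 44 counts in that library and 2 to 6 in the other isotype libraries, and its part in these values was not tested.

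**Figure D3:**
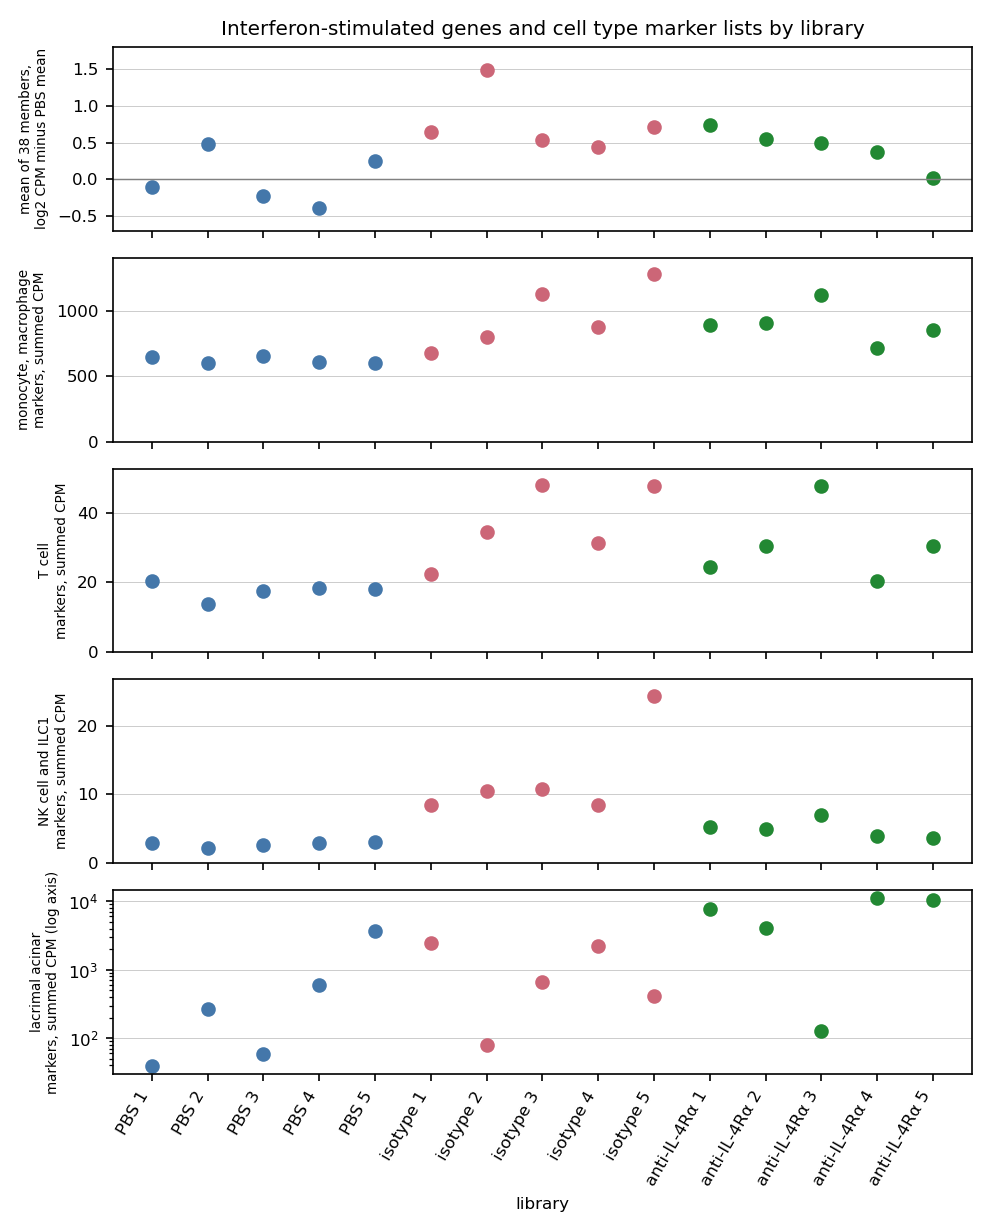
Mean of the 38 members as log2 CPM minus the PBS mean (top) and summed CPM of 4 marker lists (vertical axes, the lacrimal acinar one on a log scale) in each of the 15 libraries (horizontal axis). Isotype replicate 2 is highest for the members at 1.49, while isotype replicate 5 is highest for the monocyte and macrophage list at 1280 CPM and for the NK cell and ILC1 list at 24.3 CPM.

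Comparing the anti-IL-4Rα with the isotype group asks what blocking IL-4Rα did to these genes under OVA challenge. Of the 38 members, 1 fell (2.63%), against 8.13% of all genes tested called lower, and 0 were called higher, against 6.73%. The member that fell was Parp9 (log2 fold change -0.37 ± 0.11 (SE), adjusted p = 0.0388, n = 5 per group), and its groups overlapped. At an unadjusted p under 0.05, 12 members were lower and 0 higher in edgeR, against 16.9% and 15.9% of all genes. DESeq2 called 6 lower (Parp9, Parp14, Oas1a, Oas2, Trim30a and Zbp1), limma voom 2 (Parp9 and Parp14) and limma on log2(CPM + 1) 1 (Parp9), and each called 0 higher. Of all genes tested, these called 21.3%, 20.4% and 13.8% in either direction. Log2 fold changes were negative for 37 of 38 members, from -1.22 for Iigp1 to 0.19 for Ifi27l2a, with a median of -0.36 against 0.01 over all genes. The groups overlapped for all 38 members, while 4.96% of all genes were lower without overlap and 2.35% higher.

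These counts moved with single libraries. Parp9 was not called without isotype replicate 2, 3 or 5 (adjusted p = 0.0974, 0.0861 and 0.0838), nor with anti-IL-4Rα replicate 1, 2, 4 or 5 left out (0.0553, 0.0701, 0.0928 and 0.0851), and the count was then 0. Those fits called 4.66% to 7.62% of all genes tested in either direction. Without isotype replicate 1 the count was 3, with Parp14 and Trim30a added, and without isotype replicate 4 it was 5, with Zbp1, Oas1a, Oas2 and Parp14 added. There 20.1% and 16.7% of all genes tested were called. Without isotype replicate 2, 29 log2 fold changes were negative and 9 positive, the median was -0.16 and 2 members had an unadjusted p under 0.05. Iigp1 then had a log2 fold change of -0.08, against -1.22 with all libraries, Cxcl9 one of 0.60, against -0.98, and Cxcl10 one of -0.36, against -1.19. With a lacrimal acinar score as a covariate, Parp9 was not called (log2 fold change -0.25, adjusted p = 0.151), the median over the members was -0.23, and 2 members had an unadjusted p under 0.05. In that fit 3.69% of all genes tested were called, against 6.73% higher and 8.13% lower without the covariate. Summed lacrimal acinar markers averaged 6630 CPM in the anti-IL-4Rα group and 1170 CPM in the isotype group. The part of the score and that of the antibody therefore cannot be told apart.

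The next smallest p values after that of Parp9 in edgeR belonged to Parp14, Oas2 and Trim30a, and none of the 3 passed there, whereas DESeq2 called them (adjusted p = 0.0277, 0.0321 and 0.0421). Parp14 had a log2 fold change of -0.36 ± 0.12 (SE) and an adjusted p of 0.059. For Oas2 the test gave a log2 fold change of -0.75 ± 0.27 (SE) and an adjusted p of 0.076. Trim30a followed with a log2 fold change of -0.47 ± 0.17 (SE) and an adjusted p of 0.0793. In each of these genes the anti-IL-4Rα values given above overlapped the isotype values, with anti-IL-4Rα replicate 1 the highest of its group. By role, the median log2 fold change was -1.09 for the chemokines, -0.58 for the oligoadenylate synthetases, -0.49 for the ISG15 system, -0.45 for the GTPases, -0.38 for the sensors, -0.36 for the PARP group, -0.36 for the other effectors, -0.21 for the transcription factors and -0.19 for the IFIT genes. Without isotype replicate 2 the medians, in the same order, were 0.12, -0.27, -0.24, -0.18, -0.22, -0.26, -0.10, -0.11 and 0.06, so those of the chemokines and the IFIT genes were positive. With the lacrimal acinar covariate they were -0.26, -0.44, -0.45, -0.32, -0.36, -0.25, -0.24, -0.12 and -0.08, all negative.

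The comparison of the anti-IL-4Rα with the PBS group asks what of the OVA response was present under the antibody. Called higher were 0 of 38 members, against 2.28% of all genes tested, and called lower 0, against 1.44%. At an unadjusted p under 0.05, 10 members were higher and 0 lower in edgeR, against 12.1% and 11% of all genes. The members under that threshold numbered 4 to 20 when 1 library was left out, with 20 for PBS replicate 2. DESeq2 called 3 higher (Stat2, Oas2 and Trim30a), limma voom 2 (Stat2 and Trim30a) and limma on log2(CPM + 1) 0, and each called 0 lower. Of all genes tested, these called 10.3%, 12.2% and 2.9% in either direction. Log2 fold changes were positive for 37 of 38 members, with a median of 0.37 (0.29 to 0.56 leaving out 1 library) against -0.00 over all genes, and ran from -0.03 for Irf1 to 1.12 for Cxcl10.

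Every anti-IL-4Rα library lay above every PBS library for 2 members (5.26%), where the share of all genes tested was 2.98% and 2.28% were called higher. These were Trim30a (log2 fold change 0.64 ± 0.17 (SE), adjusted p = 0.0542) and Stat2 (log2 fold change 0.35 ± 0.11 (SE), adjusted p = 0.0804), and edgeR called neither. Their exact permutation p of 0.00794 follows from the lack of overlap by which they were picked, so it adds nothing to it. Trim30a was called without isotype replicate 1, 2 or 5 (adjusted p = 0.0416, 0.0432 and 0.0461), and Stat2 without isotype replicate 2 (0.0319), which gave counts of 1, 2 and 1 members. In these fits 3.98%, 5.25% and 3.29% of all genes tested were called in either direction. The next were Oas2 (log2 fold change 0.76 ± 0.27 (SE), adjusted p = 0.117) and Gbp3 (log2 fold change 0.55 ± 0.20 (SE), adjusted p = 0.129). Their groups overlapped.

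The isotype libraries entered both of the first comparisons and the PBS libraries entered the first and the third, so these are not independent. Side by side, the isotype minus PBS, anti-IL-4Rα minus isotype and anti-IL-4Rα minus PBS medians over the 38 members were 0.73, -0.36 and 0.37. That 22 members passed in the first comparison and 0 in the third does not show that the groups given antibody differed, and the direct test of that difference called Parp9.

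**Figure D4:**
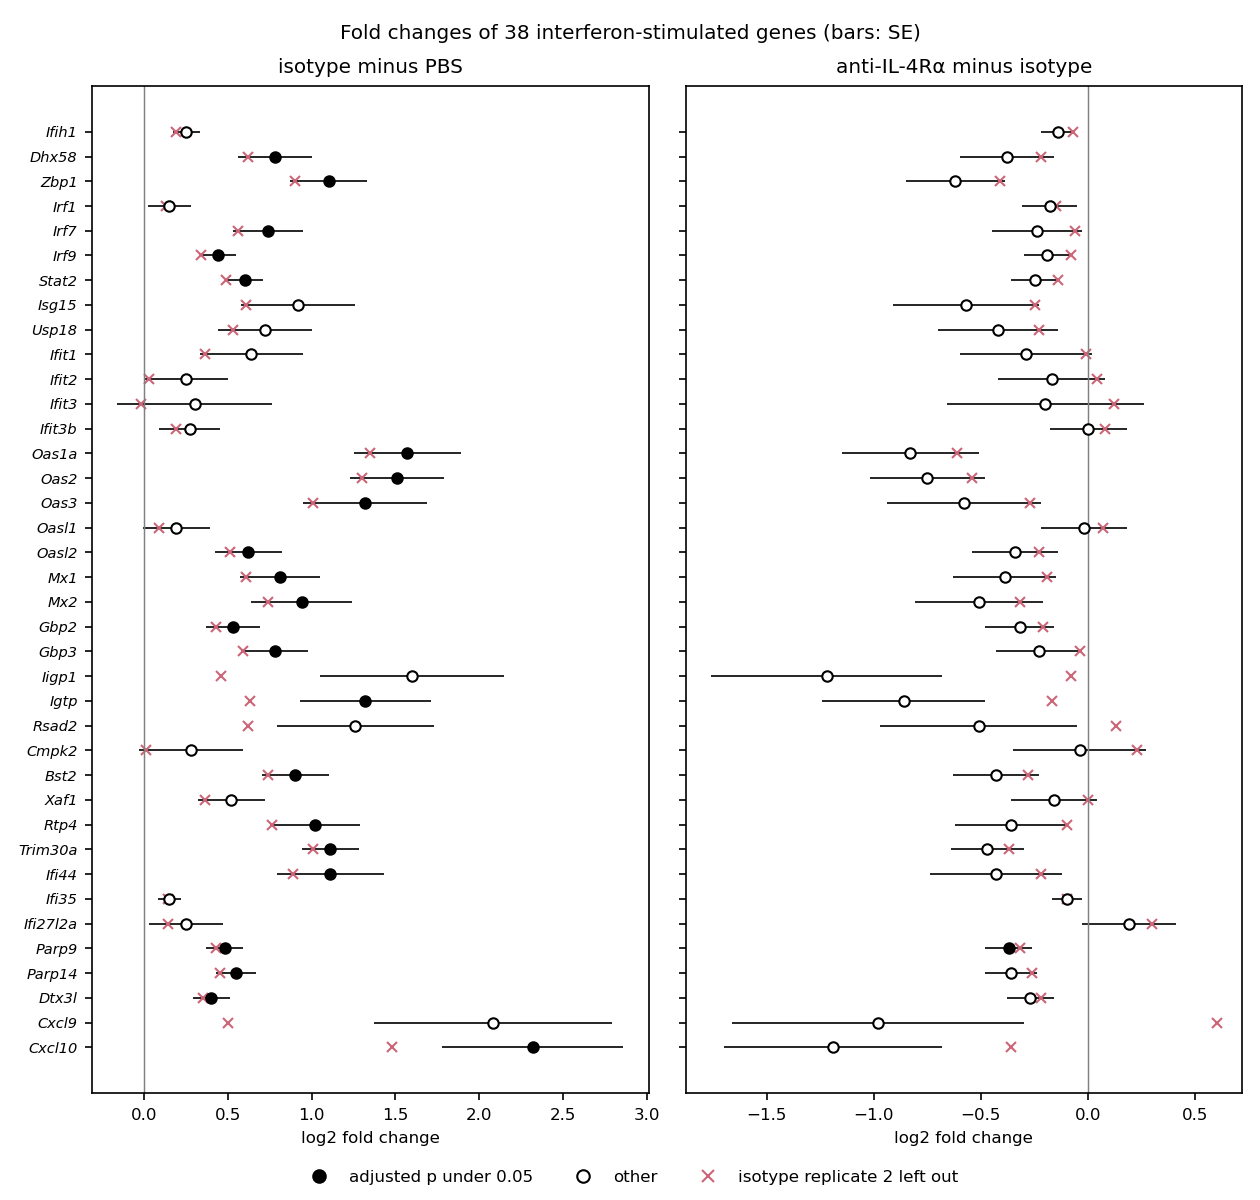
Log2 fold change with SE (horizontal axis) of each of the 38 members (vertical axis, by role) for isotype minus PBS (left) and anti-IL-4Rα minus isotype (right), with filled points for called members and crosses for the value without isotype replicate 2. All 38 points on the left lie above 0, 37 on the right lie below 0 with Parp9 filled, and the crosses of Cxcl9 and Iigp1 lie far from their points.

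Other genes of the interferon pathway were taken from lists by role, 98 genes of which 87 were tested. Between isotype and PBS, 37 rose (42.5%, against 9.53% of all genes) and 0 fell (against 7.49%) in edgeR, and their median log2 fold change was 0.33. At an unadjusted p under 0.05, 57 were higher and 0 lower, against 17.1% and 15.5% of all genes. DESeq2 called 53 higher, limma voom 48 and limma on log2(CPM + 1) 27, and each called 0 lower. None of the 10 ligand genes listed had enough counts to be tested. Ifna1, Ifna2, Ifna4 and Ifnz had 0 counts in all 15 libraries, where 3 counts, the most that a count of 0 allows, correspond to 0.0307 to 0.0741 CPM by library. Totals over the 15 libraries were 4 counts for Ifnb1, 2 for Ifne, 9 for Ifnk, 4 for Ifnl2 and 2 for Ifnl3. Ifng had 2, 1, 1, 0 and 4 counts in PBS replicates 1 to 5, 6, 44, 2, 6 and 6 in isotype replicates 1 to 5, and 3, 7, 4, 3 and 0 in anti-IL-4Rα replicates 1 to 5. No ligand gene was tested for a difference at these counts. Of the 6 receptor genes 0 were called in edgeR, with 2 higher at an unadjusted p under 0.05, while DESeq2 called 1, limma voom 2 and limma on log2(CPM + 1) 0. Ifnar1 had a log2 fold change of 0.15 (adjusted p = 0.0618), was called without isotype replicate 1 (0.00783), and Ifnar2, Ifngr1, Ifngr2, Ifnlr1 and Il10rb lay between -0.18 for Ifnlr1 and 0.22 for Ifngr2.

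Of 14 signalling genes, 6 rose between isotype and PBS. Irf8, a factor of myeloid cells that interferon gamma induces, measured 15.7, 12.5, 15.2, 13.2 and 14.3 CPM in PBS replicates 1 to 5, 23.1, 30.1, 34.4, 25.2 and 40.2 in isotype replicates 1 to 5, and 22.3, 21.4, 30.9, 18.2 and 22 in anti-IL-4Rα replicates 1 to 5. The isotype and anti-IL-4Rα groups both lay wholly above the PBS group. Irf8 rose in the isotype group (log2 fold change 1.11 ± 0.16 (SE), adjusted p = 0.00103). Socs1, an inhibitor of Janus kinases, measured 6.69, 6.92, 6.64, 6.27 and 7.52 CPM in PBS replicates 1 to 5, 9.09, 16.2, 11.2, 9.36 and 13.8 in isotype replicates 1 to 5, and 5.92, 5.73, 9.05, 7.09 and 6.38 in anti-IL-4Rα replicates 1 to 5. The isotype group lay wholly above both other groups. Socs1 rose between PBS and isotype (log2 fold change 0.81 ± 0.16 (SE), adjusted p = 0.00647) and fell between isotype and anti-IL-4Rα (log2 fold change -0.80 ± 0.16 (SE), adjusted p = 0.00993).

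Among 12 genes that detect nucleic acids or pass that signal on, 6 rose, with the smallest p values for the RNA receptor Tlr8 (1.22, adjusted p = 0.00305), Tmem173, which encodes STING (0.80, 0.00324), and the adaptor Myd88 (0.29, 0.00664). Of 33 further interferon-stimulated genes outside the 38, 15 rose, led by Ms4a4c (2.31, adjusted p = 0.00136), the nucleotide hydrolase Samhd1 (0.97, 0.00143) and the DNA exonuclease Trex1 (0.77, 0.00185). Of 22 tested genes linked to interferon gamma, 10 rose, led by Gbp7 (0.89, adjusted p = 0.0129), the chemokine Cxcl11 (2.14, 0.0155) and Nos2, the inducible nitric oxide synthase (1.65, 0.0224). In this list limma on log2(CPM + 1) called 3, limma voom 9 and DESeq2 13, and edgeR called 4 without isotype replicate 2, which was 3.65-fold over the median of the other isotype libraries for Gbp6, 3.43-fold for Cxcl11, 3.39-fold for Gbp4, 3.33-fold for Irgm2, 3.1-fold for Gbp8 and 2.79-fold for Gbp5. These 6 were picked by that fold. The call of Nos2 was lost without PBS replicate 2, isotype replicate 2 or isotype replicate 3 (adjusted p = 0.052, 0.0527 and 0.0653).

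Between anti-IL-4Rα and isotype, 10 of the 87 other pathway genes fell (11.5%, against 8.13% of all genes) and 0 rose (against 6.73%) in edgeR. At an unadjusted p under 0.05, 27 were lower and 2 higher, against 16.9% and 15.9% of all genes. DESeq2 called 16 lower, limma voom 19 and limma on log2(CPM + 1) 10, and each called 0 higher. They included Socs1, Jak2 (-0.44, adjusted p = 0.0222), Socs3 (-0.70, 0.0315), Myd88 (-0.28, 0.012), Cgas (-0.44, 0.0311), Tmem173 (-0.49, 0.0327), Trex1 (-0.50, 0.0195) and Trim25 (-0.33, 0.0231). Samhd1 measured 111, 121, 110, 96.2 and 99.3 CPM in PBS replicates 1 to 5, 161, 239, 247, 169 and 234 in isotype replicates 1 to 5, and 127, 117, 157, 97.8 and 106 in anti-IL-4Rα replicates 1 to 5. The isotype group lay wholly above both other groups, and anti-IL-4Rα replicate 3 was the highest of its own. Samhd1 fell under the antibody (log2 fold change -0.80 ± 0.14 (SE), adjusted p = 0.00582). Socs1, Myd88 and Samhd1 were called in each of the 15 fits that left out 1 library. The number called was 17 without isotype replicate 1, 4 without isotype replicate 2, 3 without isotype replicate 3 and 6 without isotype replicate 5. It was 5, 5, 22, 6 and 4 without anti-IL-4Rα replicates 1, 2, 3, 4 and 5. Jak2 lost its call in 4 of these fits, Socs3 and Cgas in 6, Tmem173 in 7, Trex1 in 2 and Trim25 in 5. With the lacrimal acinar covariate, or with only the 2 groups fitted, 3 of the 87 genes were called. Of all genes tested, 3.69% and 3.63% were called in these fits. The median log2 fold change over the 87 genes was -0.10 with the covariate, against -0.19 without it.

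Between anti-IL-4Rα and PBS, 7 other pathway genes rose (8.05%, against 2.28% of all genes) and 0 fell (against 1.44%) in edgeR. At an unadjusted p under 0.05, 26 were higher and 0 lower, against 12.1% and 11% of all genes. DESeq2 called 15 higher, limma voom 10 and limma on log2(CPM + 1) 4, and again each called 0 lower. Among the 7 were Irf8 (0.70, adjusted p = 0.0324), Ms4a4c (1.54, 0.0309) and Nos2 (1.93, 0.036), whose calls were lost in 7, 5 and 8 of the 15 fits that left out 1 library. The others, Ccl5, Sp100, Isg20 and Ifi207, were named after their values were seen. The number called was 1 with PBS replicate 1, 2 or 4 left out, and likewise with anti-IL-4Rα replicate 1 or 2. It was 2 without PBS replicate 3, 11 without isotype replicate 2, 4 without anti-IL-4Rα replicate 4 and 3 without anti-IL-4Rα replicate 5.

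Markers of leukocytes also differed between groups, and whether they changed otherwise than the members was not tested. Of all genes tested, 9.53% were called higher and 7.49% lower for isotype minus PBS. For anti-IL-4Rα minus isotype 6.73% were called higher and 8.13% lower, and for anti-IL-4Rα minus PBS 2.28% higher and 1.44% lower. Between anti-IL-4Rα and PBS, 3 of 11 monocyte and macrophage markers were called higher. So were 1 of 9 T cell markers and 1 of 6 tested NK cell and ILC1 markers. Between anti-IL-4Rα and isotype, the macrophage marker Mrc1 fell (-1.01, adjusted p = 0.015), and 0 of the 9 T cell markers were called. Of 11 monocyte and macrophage markers, 7 rose between PBS and isotype, and their summed level, led by Lyz2, was 649, 603, 657, 606 and 598 CPM in PBS replicates 1 to 5, 675, 799, 1130, 876 and 1280 in isotype replicates 1 to 5, and 894, 911, 1120, 717 and 852 in anti-IL-4Rα replicates 1 to 5. Every isotype and anti-IL-4Rα library lay above every PBS library, and isotype replicate 5 was highest. All 6 tested of 7 NK cell and ILC1 markers rose, and their sum, led by Gzma, was 2.9, 2.21, 2.6, 2.91 and 3.13 CPM in PBS replicates 1 to 5, 8.42, 10.5, 10.8, 8.52 and 24.3 in isotype replicates 1 to 5, and 5.18, 4.93, 6.94, 3.95 and 3.64 in anti-IL-4Rα replicates 1 to 5. Isotype replicate 5 was highest, and 2 of the 6 fell between isotype and anti-IL-4Rα. Of 9 T cell markers, 7 rose, with a sum, led by Cd4, of 20.4, 13.8, 17.6, 18.5 and 18 CPM in PBS replicates 1 to 5, 22.5, 34.5, 47.8, 31.2 and 47.7 in isotype replicates 1 to 5, and 24.5, 30.3, 47.5, 20.4 and 30.4 in anti-IL-4Rα replicates 1 to 5. Isotype replicates 3 and 5 and anti-IL-4Rα replicate 3 were highest. Their part in the members' values was not tested.

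Neutrophil markers, led by S100a9, rose for 4 of 6 tested between PBS and isotype and fell for 3 of 6 between isotype and anti-IL-4Rα, with sums of 52.5, 26.9, 45.9, 38.2 and 40.1 CPM in PBS replicates 1 to 5, 59.3, 117, 81.4, 84 and 112 in isotype replicates 1 to 5, and 29.3, 36.9, 31.2, 105 and 21.7 in anti-IL-4Rα replicates 1 to 5. Isotype replicate 2, the highest library for the members, was also the highest here, and among anti-IL-4Rα libraries replicate 4 was high. Of 7 plasmacytoid dendritic cell markers, 3 rose and 2 fell between PBS and isotype, and the sum, led by Ly6d, which epithelium also makes, was 605, 598, 520, 529 and 574 CPM in PBS replicates 1 to 5, 466, 454, 466, 449 and 457 in isotype replicates 1 to 5, and 410, 406, 518, 478 and 479 in anti-IL-4Rα replicates 1 to 5. Ly6d averaged 373 CPM over the libraries, so this sum does not measure plasmacytoid dendritic cells. Of 5 B cell markers, 1 rose, and the sum, led by Jchain, was 4.52, 3.97, 5.59, 3.1 and 2.14 CPM in PBS replicates 1 to 5, 21.8, 11.8, 11.4, 36.6 and 65.5 in isotype replicates 1 to 5, and 28.5, 51.2, 196, 20.9 and 45.7 in anti-IL-4Rα replicates 1 to 5. The lists of markers each held 0 genes without a count except that of lacrimal acinar cells, where Prol1 was at 0. Their part was not tested.

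Other tissue also differed between libraries. The lacrimal acinar sum, led by Pip, was 39.9, 266, 58.1, 594 and 3660 CPM in PBS replicates 1 to 5, 2480, 80.3, 664, 2230 and 415 in isotype replicates 1 to 5, and 7690, 4080, 127, 11000 and 10300 in anti-IL-4Rα replicates 1 to 5, and 1 of 7 tested rose between PBS and isotype. Anti-IL-4Rα replicates 1, 2, 4 and 5 were the highest of the 15 libraries. Skeletal muscle markers, led by Myh4, fell for 6 of 7 between PBS and isotype, with sums of 6010, 10500, 6440, 6830 and 8430 CPM in PBS replicates 1 to 5, 4870, 3650, 5500, 4260 and 5550 in isotype replicates 1 to 5, and 6240, 5120, 7130, 6130 and 4790 in anti-IL-4Rα replicates 1 to 5. Isotype replicate 2 was the lowest library. Conjunctival epithelial markers, led by Krt5, had sums of 14900, 14600, 14200, 12400 and 11700 CPM in PBS replicates 1 to 5, 14700, 14300, 17500, 13100 and 15800 in isotype replicates 1 to 5, and 11500, 10200, 14300, 11400 and 11200 in anti-IL-4Rα replicates 1 to 5, with 1 of 9, Krt14, called higher in the isotype group than in the PBS group (0.55, adjusted p = 0.00694). Between isotype and anti-IL-4Rα, Krt14 fell (-0.75, adjusted p = 0.00243), while Pax6 (0.43, 0.039) and Aqp5 (0.48, 0.0444) rose, named after their values were seen. Meibomian gland markers, led by Far2, had a median log2 fold change of -0.27 for isotype minus PBS, and endothelial markers, led by Pecam1, had 1 of 5 called higher there. Mean sums for the PBS, isotype and anti-IL-4Rα groups were 3220, 2770 and 3550 CPM for meibomian and 136, 144 and 137 CPM for endothelial markers. The part of these tissues in the members' values was not tested. With the lacrimal acinar score as a covariate, 25 members were called higher between isotype and PBS and 0 between anti-IL-4Rα and PBS. Between anti-IL-4Rα and isotype 0 were called lower, where 1 was called without it. In these 3 fits 24.9%, 0.468% and 3.69% of all genes tested were called in either direction. Without the covariate 9.53%, 2.28% and 6.73% were called higher, and 7.49%, 1.44% and 8.13% lower. Lacrimal acinar sums were highest in anti-IL-4Rα libraries, so the part of the score and that of the antibody cannot be told apart.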

How the data were processed

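The authors deposited estimated counts (expected counts) per gene, not normalized for depth, which they made from polyA-selected paired reads filtered at a Q score of 20 and mapped uniquely to mouse B38 in Omicsoft Array Studio. The labels name a stranded mRNA kit and the methods a counting function of that program, without saying whether strand was used to assign reads, and the methods mention 2 outliers without naming them. The paper's legends give 4 to 5 samples per group for some RNA-seq panels, while all 15 libraries are deposited and were used. Totals were 67453932, 55243773, 52435180, 48622246 and 58144241 for PBS replicates 1 to 5, 48657048, 87745024, 55573584, 55724845 and 51325239 for isotype, and 54178201, 71637073, 63064160, 50432495 and 51735412 for anti-IL-4Rα. Counts were rounded, a gene needed 10 or more counts in 5 or more libraries, and the 3 groups were fitted together with edgeR 4.0.16 (R 4.3.3, TMM factors, quasi-likelihood test, Benjamini-Hochberg adjustment over 19006 genes). Log2 CPM used a prior count of 2. Single members were also compared by exact two-sided permutation. Symbols, coordinates and exon lengths were those of GENCODE for GRCm38, an older gene model than that of the authors. Tables and figures used Python 3.11.15, pandas 2.3.3, numpy 2.4.6, scipy 1.17.1 and matplotlib 3.10.9.

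The members and lists were chosen with earlier results of these data known. Described library by library were, in each role list, the member with the highest CPM per kilobase and that with the smallest p for isotype minus PBS, and the 4 with the smallest p in each other comparison. Of each other pathway list, the 3 called genes with the smallest p and all receptors were named, except 1 gene that is not reported here. Alternatives were upper quartile factors, DESeq2 1.42.0, limma 3.58.1 (voom with quality weights, and log2(CPM + 1)), other filters, fits of 2 groups, a block for replicate number, a lacrimal acinar covariate, other thresholds and leaving out libraries. Floors of 3 counts cover counting error only.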

Additional observations from a re-analysis of the deposited data

Results flagged for a closer look

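In 17 of 114 groups of 5 libraries (38 members in each of 3 groups), the highest or lowest library lay far from the nearest other. Its gap in CPM, divided by the whole range of the group in CPM, passed 0.71. For normally distributed values chance gives that in about 1 of 20 groups. CPM values need not be so distributed, and the ratio on log2 CPM is not given. The share of all genes tested that passed this ratio is not given, so the count is not read as particular to the members. The members are not independent, since 14 of the 17 come from isotype replicate 2, the highest of its group in each. There the ratio was 0.941 for Iigp1, 0.901 for Rsad2, 0.898 for Cxcl9, 0.886 for Ifit1, 0.882 for Igtp, 0.862 for Mx1, 0.837 for Xaf1 and 0.808 for Cxcl10. For the other 6 members of that library it was 0.79 for Rtp4, 0.784 for Usp18, 0.776 for Ifit2, 0.74 for Cmpk2, 0.722 for Isg15 and 0.719 for Oas3. PBS replicate 2 was far above its group for Ifit2, at 11.5 CPM and a ratio of 0.763. Anti-IL-4Rα replicate 5 was far below its group for Irf9, at 36.4 CPM and a ratio of 0.768, and for Mx1, at 3.99 CPM and a ratio of 0.769.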

How the results depend on the processing

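Between isotype and PBS, 22 members were called higher, and leaving out 1 library gave 12 to 25. Leaving out together the isotype and PBS libraries with the highest member means (replicate 2 of each), an alternative chosen after seeing the data, gave 13, with 23 other pathway genes (37 in full) and 1160 of all genes (3235 in full). With a block for replicate number, all genes called were 2115, at an adjusted p under 0.10 they were 4905, and at a fold change of 1.5 or more 1306. Leaving out 1 library gave 25 to 44 pathway genes and 1863 to 3936 of all genes. Replicate numbers did not pair libraries: correlations between same-numbered libraries of different groups ran from -0.385 to 0.454. In this comparison members called lower were 0 in each alternative.

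Between anti-IL-4Rα and isotype, members called higher were 0 in each alternative. Members called lower (1) were 6 with DESeq2, 2 with voom, 0 with no filter, 0 with only the 2 groups compared, 2 with the replicate block, 0 with the lacrimal acinar covariate, 0 without both libraries, 6 at an adjusted p under 0.10, 0 at a fold change of 1.5 or more and 0 to 5 leaving out 1 library. All genes called (2826) were 1749 with no filter, 675 with 2 groups, 1859 with the block, 701 with the covariate, 844 without both libraries, 4697 at 0.10, 1010 at the fold of 1.5 and 882 to 4206 leaving out 1 library. Pathway genes called (10) were 16 with DESeq2, 19 with voom, 3 with 2 groups, 3 with the covariate, 3 without both libraries, 17 at 0.10, 3 at the fold of 1.5 and 3 to 22 leaving out 1 library.

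Between anti-IL-4Rα and PBS, members called lower were 0 in each alternative. Members called higher (0) were 3 with DESeq2, 2 with voom, 2 with 2 groups, 1 with the block, 1 without both libraries, 2 at 0.10 and 0 to 2 leaving out 1 library. All genes called (707) were 1966 with DESeq2, 2318 with voom, 327 with no filter, 312 with the block, 89 with the covariate, 128 without both libraries, 1952 at 0.10, 272 at the fold of 1.5 and 82 to 2029 leaving out 1 library. Pathway genes called (7) were 15 with DESeq2, 4 with limma on log2(CPM + 1), 4 with the block, 2 with the covariate, 1 without both libraries, 13 at 0.10 and 1 to 11 leaving out 1 library. The cause of these differences was not tested. Without isotype replicate 2, Ifit3 went from 0.30 to -0.02 between isotype and PBS (0.97 without PBS replicate 2, 0.65 without both) and Cxcl9 from -0.98 to 0.60 between anti-IL-4Rα and isotype.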
